A study of Arabidopsis thaliana with 8 samples.

Results

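The effect of the ag-10 mutation on transcript levels was measured by comparing the 4 libraries that carry ag-10 with the 4 that do not, among the 8 libraries of a study of young Arabidopsis thaliana inflorescences. The ag-10 side held 2 single-mutant libraries (ag-10) and 2 double-mutant libraries (ag-10 fhy3-68). The other side held 2 libraries of Landsberg erecta (Ler), the wild type, and 2 of the fhy3-68 single mutant. Each side thus carries fhy3-68 in 2 of its libraries, and fhy3-68 status was kept as an additive term, so the ag-10 coefficient is the mean shift within the 2 backgrounds, the one without and the one with fhy3-68. All 19853 listed genes were tested. The tissue was inflorescence with flowers up to stage 8, untreated as far as the labels state, and the series describes the 2 libraries of a genotype as biological replicates. The labels give neither the lesion of ag-10 nor that of fhy3-68, nor whether plants were pooled.

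AGAMOUS (AG) encodes a MADS-domain transcription factor that specifies stamens and carpels and ends the activity of the floral meristem, in part by shutting off the stem cell gene WUS. It acts with SEPALLATA proteins and switches on genes for carpel identity, such as CRC, and for the formation of spores, such as SPL. The allele ag-10 is known as a weak one, whose flowers still form stamens and carpels. FHY3, mutated in fhy3-68, is a transposase-derived transcription factor of far-red light signalling that also acts in flowers.

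Values are deposited normalised reads on a scale of about 1000000 per library, from between 12322061 and 16816619 reads in listed genes. AG itself was not analysed here, so the targeted gene does not check the ag-10 labels. Floral identity genes were well represented, with AP3 between 143 and 240, PI between 248 and 299 and SEP3 between 183 and 243 over the 8 libraries. The 2 ag-10 single-mutant libraries differed in defence genes: BGL2, a glucanase of the salicylic acid response, stood at 3.81 in replicate 1 and 49.86 in replicate 2, and PR5 at 6.28 and 70.23. The summed level of 16 rapid stress genes, which respond within minutes to handling, was 395 and 184 in Ler against 133 and 472 in ag-10, and 1425 and 1775 in fhy3-68 against 749 and 1556 in ag-10 fhy3-68. Replicates of the same genotype thus differed more than 2-fold in this sum in all genotypes but fhy3-68.

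Across the genome the ag-10 coefficient was small. On the log2(value + 0.5) scale its median was -0.00, 90% of genes lay between -0.24 and 0.21, and 19 genes exceeded 1 in either direction. No gene passed an adjusted p of 0.05 in limma (0%, lowest Benjamini-Hochberg adjusted p = 0.297) or in the edgeR quasi-likelihood test on reads recovered from the values (0 called, lowest adjusted p = 0.348). At an unadjusted p under 0.05, limma held 614 genes (3.09%), of which 221 were higher (1.11%) and 393 lower (1.98%) with ag-10, and edgeR held 642 (3.23%). The limma and edgeR totals are both below the share that this threshold lets through when no gene differs. In the same limma fit, the fhy3-68 coefficient passed for 4556 genes (22.9%). DESeq2 on the recovered reads called 36 genes for ag-10 (0.22% of the 16389 with an adjusted p), 8 higher (0.0488%) and 28 lower (0.171%). With 1 library left out, that DESeq2 count lay between 3, without ag-10 replicate 1, and 68, without fhy3-68 replicate 2, and it moved by over 1.5 times for 6 of the 8 libraries. All 4 ag-10 libraries lay above the 4 others for 120 genes (0.604%) and below them for 138 (0.695%), 258 in all (1.3%). Some genes separate in this way by the ordering of libraries alone, so these are not counts of changed genes. The balance of the directions rested on the scaling: with library totals in place of the deposited size factors, which moved the median over all genes by 0.02, the split at an unadjusted limma p was 318 higher and 300 lower, and 161 genes lay above and 91 below in all 4 libraries.

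The effects measured in the 2 backgrounds, which share no library, had a Pearson correlation of 0.057 over the 16061 genes with a mean of at least 5, a description across genes that are not independent. They had the same sign in 10393 of all listed genes (52.3%). The 2 mutant libraries lay apart from their 2 controls for 32.4% of genes in ag-10 against Ler and for 22.2% in ag-10 fhy3-68 against fhy3-68. With 2 against 2 libraries such separation is frequent by ordering alone, so these shares do not count genes changed by ag-10. Both ag-10 libraries lay on the same side of their 2 controls in both backgrounds for 951 genes, 408 higher (2.06%) and 543 lower (2.74%), while 576 (2.9%) were apart in opposite ways. With library totals that split turned to 556 higher and 404 lower.

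**Figure D1:**
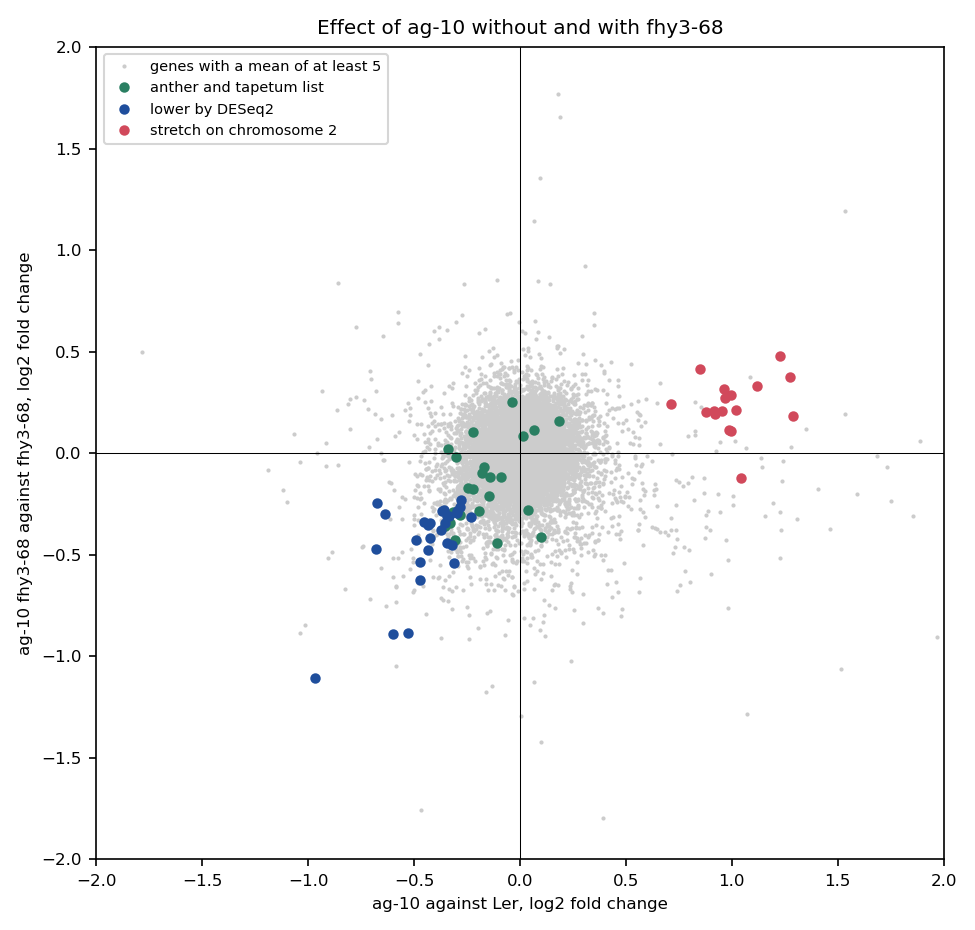
Log2 fold change of ag-10 against Ler (horizontal axis) and of ag-10 fhy3-68 against fhy3-68 (vertical axis), for genes with a mean of at least 5; 9 of the 16061 genes lie outside the axes. The 28 genes that DESeq2 called lower sit in the lower left, below 0 in both backgrounds, and the neighbouring genes on chromosome 2 sit near 1 on the horizontal axis and nearer to 0 on the vertical one.

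The tapetum is the anther layer that feeds the pollen and makes its wall. SHT, a tapetal spermidine hydroxycinnamoyl transferase that makes phenolic amides of the pollen coat, stood at 166.6 and 154.2 in Ler against 122.9 and 116 in ag-10, and 108.4 and 106 in fhy3-68 against 75.92 and 84.76 in ag-10 fhy3-68. Both ag-10 libraries lay below their controls in each background, while fhy3-68 alone lay below ag-10 alone, so the 4 against 4 libraries overlap. In bulk tissue, fewer cells of a type and less RNA per cell cannot be told apart. The ag-10 coefficient of SHT was -0.42 (SE 0.06), which is 25.2% lower, with an adjusted p of 0.297 in limma and 3.78e-05 in DESeq2. RHS14, annotated as root hair specific 14, had the lowest DESeq2 p: 103 and 87.6 in Ler against 62.91 and 61.96 in ag-10, and 54.6 and 45.6 in fhy3-68 against 24.54 and 28.93 in the double mutant. Its coefficient was -0.75 (SE 0.10), with an adjusted p of 0.297 in limma and 2.01e-06 in DESeq2. SHT and RHS14 were also the 2 genes that DESeq2 called after leaving out each of the 8 libraries in turn. These and the other genes called by DESeq2 outside the naming rule were chosen after their values were seen.

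Values follow for 4 other genes known from anthers, picked after their values were seen and called by neither limma nor edgeR, so they make no tested group. CYP98A8, a cytochrome P450 that hydroxylates these amides, read 113 and 118.1 in Ler against 79.34 and 92.83 in ag-10, and 104.3 and 97.39 in fhy3-68 against 72.31 and 86.73 in ag-10 fhy3-68. All 4 ag-10 libraries lay below the 4 others, and the coefficient was -0.39 (SE 0.08, DESeq2 adjusted p = 0.0267). CYP98A9, its neighbour and close relative, had a coefficient of -0.37 (SE 0.12), with both ag-10 libraries below the controls in each background, and was not called by DESeq2 (adjusted p = 0.784). Reads of the 2 may be hard to separate where the sequences are alike. TSM1, a tapetal methyltransferase of phenolic amides, read 428.6 and 458.4 in Ler against 325.6 and 367.3 in ag-10, and 368.2 and 356 in fhy3-68 against 277.2 and 320.9 in the double mutant, with a coefficient of -0.32 (SE 0.07, DESeq2 adjusted p = 0.028). The ag-10 single mutant and fhy3-68 overlapped for TSM1, and within each background the groups were apart. ATA27, an anther glycosyl hydrolase, was the most abundant gene of the 28, with 951 and 1078 in Ler against 812.6 and 757.9 in ag-10, and 1049 and 897.2 in fhy3-68 against 802.5 and 787.7 in ag-10 fhy3-68. Its coefficient was -0.33 (SE 0.08, DESeq2 adjusted p = 0.0119), and the 4 ag-10 libraries lay below all others. With each library left out in turn, DESeq2 called CYP98A8 and TSM1 in 2 of 8 fits and ATA27 in 1 of 8.

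**Figure D2:**
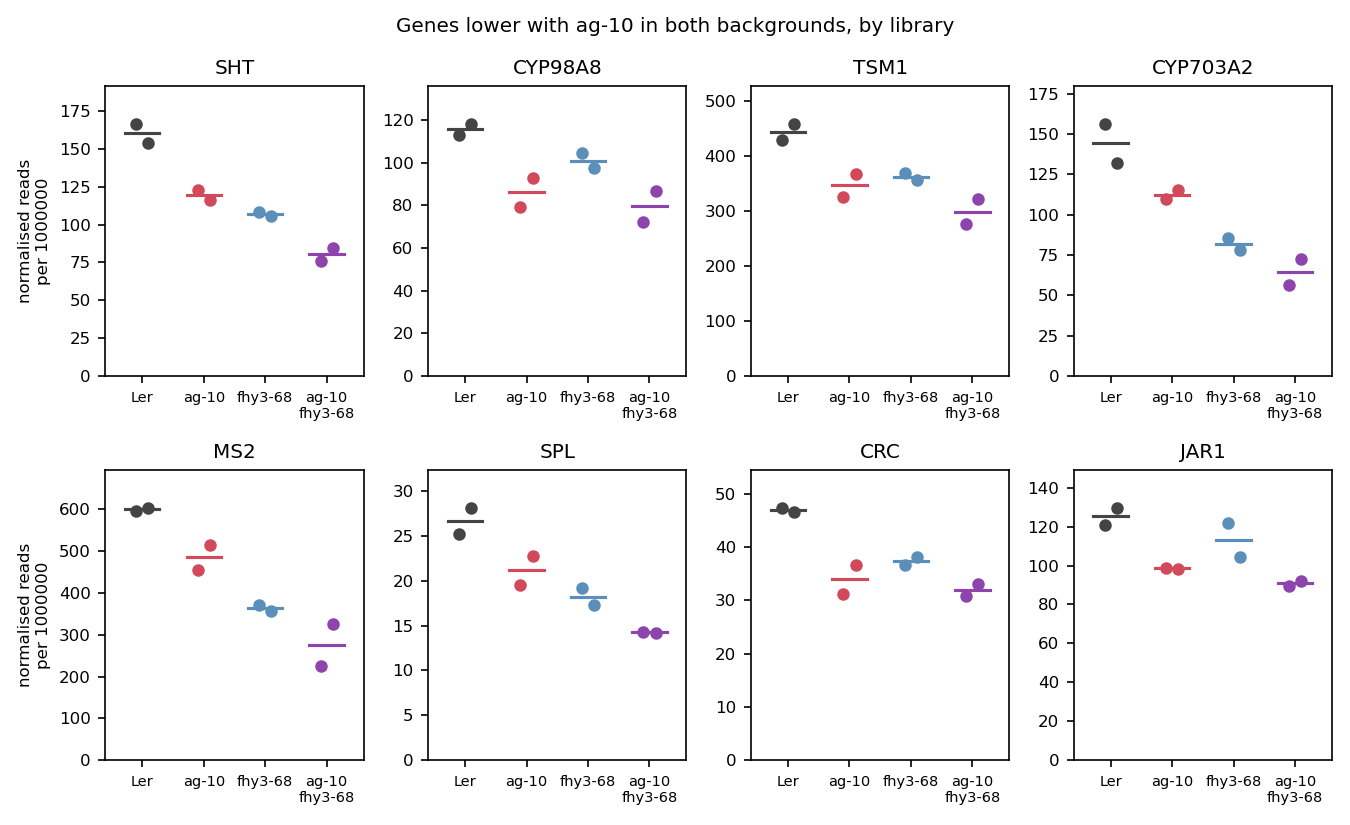
Normalised reads (vertical axis, from 0) of 8 genes by genotype; each point is a library and each bar the mean of 2. In every panel both ag-10 points lie below both Ler points and both ag-10 fhy3-68 points lie below both fhy3-68 points, and fhy3-68 alone stands below Ler in most panels.

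The other genes that DESeq2 called lower had limma coefficients between -1.04 and -0.26. Each of the 28 was apart and lower in both backgrounds, against 2.74% of all genes. They were selected from these same libraries, so that is no separate support. JAR1, the enzyme that joins jasmonate to isoleucine to give the active hormone, read 120.9 and 129.7 in Ler against 98.81 and 98.27 in ag-10, and 121.9 and 104.3 in fhy3-68 against 89.65 and 91.93 in ag-10 fhy3-68. All 4 ag-10 libraries lay below the others, and the coefficient was -0.33 (SE 0.06, DESeq2 adjusted p = 0.0103). With each library left out in turn, JAR1 and ICL were called by DESeq2 in 1 of 8 fits each. ICL, isocitrate lyase of the glyoxylate cycle, had the coefficient farthest from 0 among the 28, -1.04 (SE 0.20), at levels of 5.82 and 6.59 in Ler against 3.1 and 2.76 in ag-10, and of 11.61 and 6.12 in fhy3-68 against 4.35 and 3.05 in the double mutant. LBD2, of the LOB-domain family of transcription factors, had a coefficient of -0.71 (SE 0.12) and was called in 7 of 8 such fits. So were AT1G47980, annotated as a desiccation-like protein (-0.43, SE 0.08), and AT1G76470, a Rossmann-fold protein (-0.55, SE 0.10). KCS15, annotated as a synthase that lengthens fatty acids, had one of -0.39 (SE 0.07) and was called in 2 of 8 such fits. A pair of acyltransferases of the HXXXD family, to which SHT also belongs, were among the 28: AT4G29250 at -0.58 (SE 0.09) and AT3G23840 at -0.32 (SE 0.07, called in 1 of 8). AT1G44224, annotated as ECA1 gametogenesis related, read 61.31 and 63.24 in Ler against 49.51 and 48.48 in ag-10, and 68.66 and 70.67 in fhy3-68 against 52.94 and 49.37 in the double mutant. Its fhy3-68 coefficient was 0.11, the 4 against 4 libraries were apart, and the ag-10 coefficient was -0.39 (SE 0.05, adjusted p 0.297 in limma and 0.000642 in DESeq2).

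The genes that the naming rule took as lower in all 4 libraries also held AT2G03200, an aspartyl protease (-0.46, SE 0.08), AT2G03740, a late embryogenesis abundant domain protein (-0.30, SE 0.05), AT5G16960, a zinc-binding dehydrogenase (-0.37, SE 0.07), and AT5G48210, a prolamin-like protein (-0.46, SE 0.09). DESeq2 called these 4 with all libraries. With each library left out in turn it called AT2G03200 in 5 of 8 fits, AT5G16960 in 4, and AT2G03740 and AT5G48210 in 2 each. SCAMP4, a secretory carrier membrane protein, AT1G28700, a sugar transferase, and AT3G09380 had coefficients of -0.75, -0.39 and -0.85 and were called by none of the 3 tools.

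The anther and tapetum list, was made with earlier results of these data known. Of its 26 genes, 20 had a coefficient below 0 (76.9%, against 50.6% of all genes), and the median was -0.15 against -0.00 over all genes. None was called by limma. At an unadjusted limma p under 0.05, 6 were lower and 0 higher, against 1.98% and 1.11% of all genes. Within both backgrounds 6 were apart and lower and 0 apart and higher, against 2.74% and 2.06% of all genes. The list's median was -0.16 without fhy3-68 and -0.13 with it. It was -0.07 when ag-10 fhy3-68 replicate 1 was left out and -0.23 when replicate 2 of that genotype was.

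Several members at the low end make sporopollenin, the polymer of the pollen wall, or control spore formation. CYP703A2, a fatty acid hydroxylase of the pathway, read 156.4 and 132.3 in Ler against 109.7 and 115.4 in ag-10, and 85.79 and 77.94 in fhy3-68 against 56.21 and 72.26 in ag-10 fhy3-68, with a coefficient of -0.36 (95% interval -0.56 to -0.15). MS2 (AT3G11980), a fatty acyl reductase, had one of -0.37 (-0.62 to -0.12), from 596 and 604 in Ler to 455 and 515 in ag-10. SPL, a regulator of spore mother cells and a reported direct target of AG, read 25.26 and 28.17 in Ler against 19.54 and 22.82 in ag-10, and 19.23 and 17.29 in fhy3-68 against 14.27 and 14.23 in the double mutant. Its coefficient was -0.34 (-0.52 to -0.15), with -0.33 without and -0.35 with fhy3-68. Members with coefficients nearer to 0 were ACOS5 at -0.12 and LAP6 at -0.16, enzymes of the same pathway, and AMS, a tapetal transcription factor, at -0.14, all with intervals that span 0. The early regulators DYT1 and TPD1 had coefficients of 0.16 and 0.17, also with intervals that span 0.

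The fhy3-68 coefficient of the list had a median of -0.32, farther from 0 than that of ag-10. The summed level of the list was 5296 and 5117 in Ler against 4484 and 4518 in ag-10, and 4678 and 4463 in fhy3-68 against 3839 and 4400 in ag-10 fhy3-68. For other stages of the male lineage, the 22 meiosis genes summed to 223 and 232 in Ler against 220 and 230 in ag-10, and 179 and 188 in fhy3-68 against 170 and 198 in the double mutant, with a median ag-10 coefficient of -0.00. The 7 mature pollen genes summed to between 87 and 110 in Ler and ag-10 and between 119 and 228 in the fhy3-68 backgrounds, where ag-10 fhy3-68 replicate 1 was highest, with a median coefficient of 0.01. That median was -0.43 without ag-10 fhy3-68 replicate 1 and 0.20 without Ler replicate 2, so its sign rested on single libraries. No gene of these lists was at 0 in all libraries, which was fixed in advance, since listed genes reach 1 in at least 2 libraries. The part of tissue age in the anther values was not tested.

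Genes reported as AG targets lay on both sides of 0. Of 20 measured, 12 had a coefficient below 0 (60%), the median was -0.05, and limma called 0. CRC, a YABBY factor of carpel and nectary growth and a direct target of AG and its partners, had the lowest coefficient: 47.4 and 46.58 in Ler against 31.24 and 36.69 in ag-10, and 36.71 and 38.11 in fhy3-68 against 30.92 and 33.11 in ag-10 fhy3-68. All 4 ag-10 libraries were below the 4 others, with ag-10 replicate 2 just under the lower fhy3-68 library, and the coefficient was -0.34 (SE 0.08, adjusted p 0.855 in limma and 0.214 in DESeq2). The CRC model overlaps another gene, and the sources used here do not state whether counting used strand.

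WUS, KNU and SUP, taken here for the floral meristem and the stamen whorl, had intervals that span 0. WUS, the stem cell factor, read 11.85 and 12.06 in Ler against 11.85 and 10.19 in ag-10, and 9.79 and 8.5 in fhy3-68 against 8.02 and 6.99 in the double mutant. The ag-10 and control groups overlapped in Ler and were apart in fhy3-68, with a coefficient of -0.19 (95% interval -0.42 to 0.03). KNU, a zinc finger repressor of WUS that AG switches on, was barely detected, at 0.61 to 1.43 in the 8 libraries, with a coefficient of -0.06 (-0.55 to 0.42). SUP, which bounds the stamen whorl, had one of 0.01 (-0.34 to 0.37).

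Among the MADS-box genes, the close relatives of AG had intervals that span 0. SHP1 had a coefficient of -0.08 (-0.36 to 0.20), SHP2 one of -0.14 (-0.40 to 0.12) and STK, an ovule identity gene, one of -0.25 (-0.58 to 0.07). For STK the estimate was 0.07 without and -0.57 with fhy3-68, a difference that limma did not call. The models of all 3 overlap another gene. SEP3, a partner of AG, was a little higher: 183.1 and 193.6 in Ler against 207.7 and 205.3 in ag-10, and 223 and 218 in fhy3-68 against 241.6 and 242.9 in ag-10 fhy3-68, a coefficient of 0.13 (0.03 to 0.24), at 0.13 without and 0.14 with fhy3-68. AP2, which opposes AG in the outer whorls, had a coefficient of 0.17 (-0.02 to 0.36), and the petal and stamen genes AP3 and PI had 0.05 and 0.04. Over the 21 organ identity genes the median was -0.00, and over the 30 carpel and ovule genes also -0.00.

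Of 15 genes of sepals, petals and organ growth, 12 had a coefficient above 0 and 3 below (20%, against 50.6% of all genes). Their median was 0.05, and limma called 0. By background the median was 0.005 without fhy3-68, with 7 of 15 below 0, and 0.08 with fhy3-68, with 2 below 0. PTL, a trihelix factor of sepal and petal growth, read 8.73 and 10 in Ler against 11.43 and 10.42 in ag-10, and 9.23 and 9.22 in fhy3-68 against 10.53 and 11.3 in the double mutant, so that all 4 ag-10 libraries were above the others (0.22, 95% interval 0.02 to 0.42). Cell division genes had coefficients below 0 in 16 of 17 cases, with a median of -0.06 (-0.01 without fhy3-68 replicate 1 and -0.11 without Ler replicate 2). AUR1, an Aurora kinase, was the one with an unadjusted limma p under 0.05 (-0.18, SE 0.07), and its model overlaps another gene. The 30 meristem genes had a median of -0.02.

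**Figure D3:**
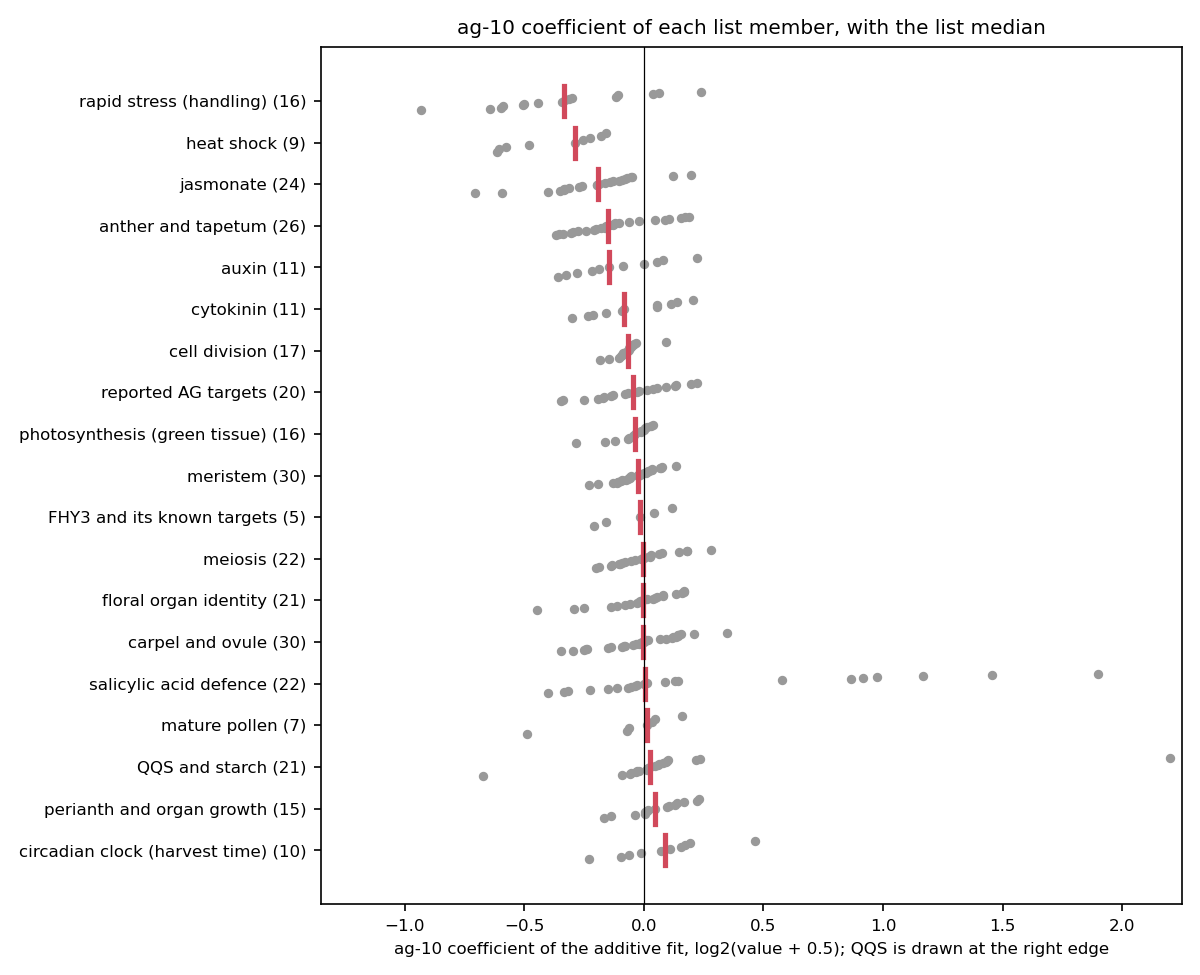
ag-10 coefficient on the log2(value + 0.5) scale (horizontal axis) of every measured gene in the lists of at least 5 genes; each grey point is a gene, each red bar a list median, and the number of genes is in brackets. The list medians lie between -0.34 and 0.09, and with all 8 libraries the lists of rapid stress, heat shock and jasmonate genes stand lowest, an order that changes when single libraries are left out.

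With all 8 libraries the lowest list medians were those of stress and hormone genes, whose levels also varied widely between replicates. The 9 heat shock genes all had a coefficient below 0, with a median of -0.29, but HSFA2, a heat stress transcription factor, read 55.6 and 2.38 in the 2 Ler libraries and 1.48 and 28.5 in the 2 of ag-10. Leaving out the first of these Ler libraries moved the heat shock median to -0.06, and leaving out the second moved it to -0.55. HSP90.1, a chaperone, was steadier at 30.65 and 24.6 in Ler against 22.43 and 22.67 in ag-10, and 20.56 and 17.86 in fhy3-68 against 16.65 and 14.41 in ag-10 fhy3-68 (-0.29, SE 0.09). Of the 16 rapid stress genes 13 were below 0, with a median of -0.34, and 0 had an unadjusted p under 0.05. That median was -0.07 without ag-10 replicate 1 and -0.83 without ag-10 replicate 2, and in the first case it stood nearer to 0 than that of the anther and tapetum list (-0.13). Of the 24 jasmonate genes 22 were below 0, with a median of -0.19 (-0.31 to -0.11 with a library left out). By background that median was -0.08 without fhy3-68 (17 of 24 below 0) and -0.37 with it (22 below 0). Besides JAR1, the jasmonate gene with an unadjusted limma p under 0.05 was JAZ8, a repressor of the pathway, at between 0.42 and 4.18 in the 8 libraries. Salicylic acid genes had a median of 0.01 over 22 genes, made of 0.28 without and -0.23 with fhy3-68, and summed to 270 and 674 in the 2 ag-10 libraries. Leaving out a library put their median between -0.16 and 0.19. The part of handling in these values was not tested.

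Of the 10 genes named as higher with ag-10, 4 lie at scattered positions. AT5G61910, annotated as a DCD domain protein, read 30.01 and 30.39 in Ler against 38.16 and 40.9 in ag-10, and 30.27 and 30.69 in fhy3-68 against 41.05 and 41.54 in ag-10 fhy3-68. The 4 libraries with ag-10 were apart from the 4 without, and the coefficient was 0.41 (SE 0.05, adjusted p 0.297 in limma and 0.00166 in DESeq2), at 0.38 without and 0.43 with fhy3-68. DESeq2 did not call it in any of the 8 fits with 1 library left out. NAC075, a NAC transcription factor, read 2.91 and 3.02 in Ler against 3.88 and 4.21 in ag-10, and 3.01 and 3.1 in fhy3-68 against 4.96 and 5.08 in the double mutant (0.51, SE 0.12), AT1G80950, a glycerol acyltransferase, had a coefficient of 0.33 (SE 0.07), and AT1G65370, a TRAF-like protein, one of 0.35 (SE 0.08). No tool called these 3, and DESeq2 gave NAC075 no adjusted p. The other 6 lie in a single stretch of chromosome 2.

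**Figure D4:**
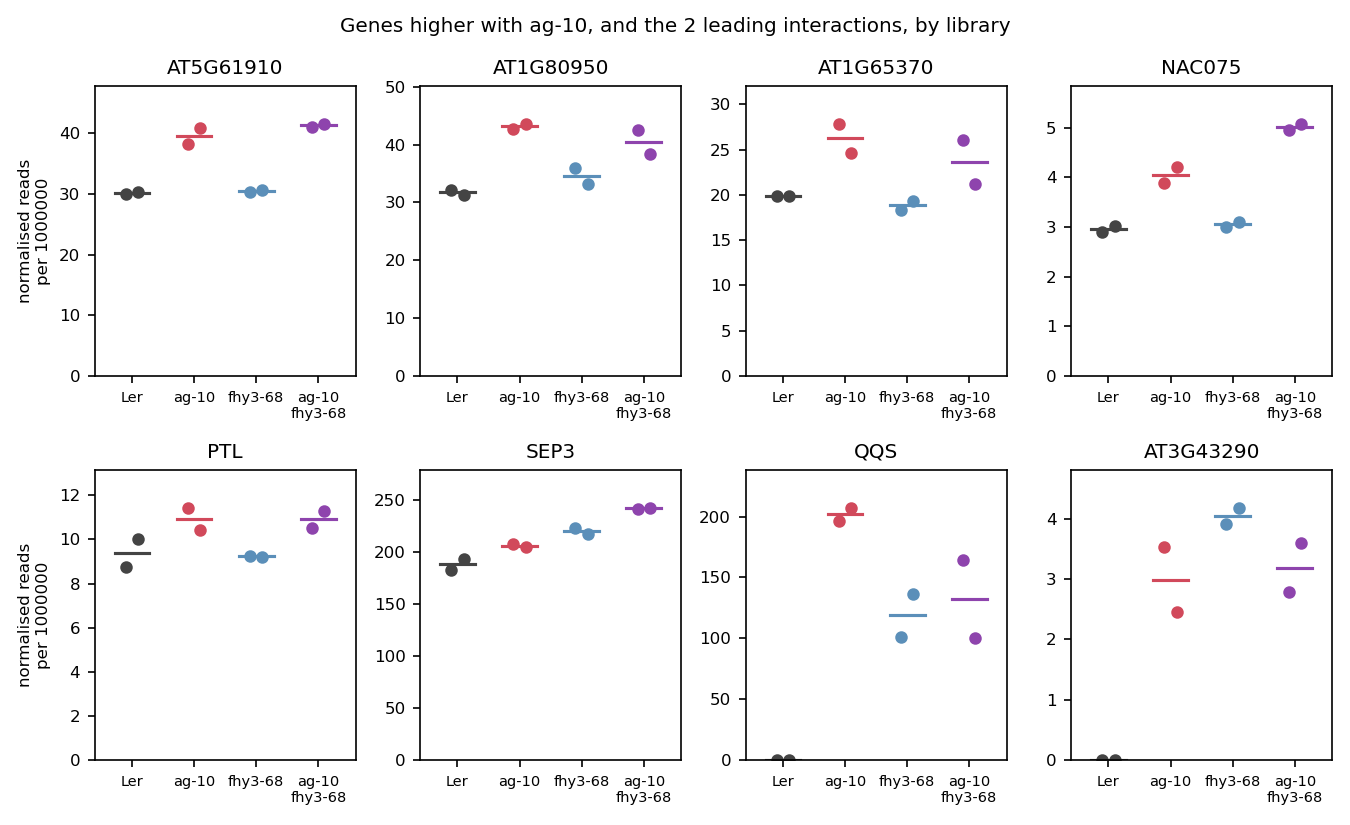
Normalised reads (vertical axis, from 0) of 8 genes by genotype; each point is a library and each bar the mean of 2. AT5G61910 and NAC075 stand higher in all 4 ag-10 libraries, and QQS and AT3G43290 are near or at 0 in both Ler libraries and well above in the 6 others.

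The stretch on chromosome 2 holds 21 consecutive listed genes, from AT2G43900 (5PTase12) to AT2G44110 (MLO15), each with a log2 fold change of at least 0.5 in ag-10 against Ler. It was delimited after its values were seen, with that fold as the rule, so its height is a description. In ag-10 against Ler the median was 0.97, close to a doubling (1.96-fold), with a range of 0.71 to 1.41. The ends of that range are AT2G44010 and MLO15, which had 17 and 5 reads over the 2 Ler libraries. In ag-10 fhy3-68 against fhy3-68 the median was 0.21, with a range of -0.43 to 0.48, and fhy3-68 itself stood 0.60 above Ler. AT2G44010 also gave the -0.43, from 21 reads in fhy3-68 and 13 in ag-10 fhy3-68. The median ag-10 coefficient of the stretch was 0.61, which describes neither background. For that coefficient 19 of the 21 genes had an unadjusted limma p under 0.05, against 3.09% of all genes. For the interaction 15 had one, against 1.21% of all genes. All 4 ag-10 libraries lay above the 4 others for 9, against 0.604% of all genes. DESeq2 called 7, so that 7 of its 8 higher genes lie here. The ag-10 against Ler values that set the stretch enter each of these counts, so they are no separate support.

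The genes of the stretch have no function in common that their annotation shows. HOL1, a methyltransferase that makes methyl halides, read 98.77 and 106.9 in Ler against 253.5 and 245.9 in ag-10, and 149.5 and 182.7 in fhy3-68 against 248.5 and 185.2 in ag-10 fhy3-68, and its neighbours HOL2 and HOL3 are of the same family. The ag-10 coefficients were 0.83 for HOL1, 0.85 for HOL2 and 0.73 for HOL3, and reads of these relatives may be hard to separate. AT2G44040, of the dihydrodipicolinate reductase family of lysine synthesis, had one of 0.62, and COS1, a lumazine synthase of riboflavin synthesis, one of 0.64. Beyond MLO15 the level dropped at once, with AT2G44120 at 0.09 in ag-10 against Ler. Before 5PTase12 the edge was less even, with AT2G43850 at 0.32, UGT74F1 at -0.26 and AT2G43830 at 0.73. The running median of ag-10 against Ler over 11 genes with a mean of at least 5 reached 0.995 at LARP6b inside the stretch, and the farthest from 0 that it came on the other chromosomes was -0.20. The files hold RNA levels and give no measure of gene copies or sequence there.

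**Figure D5:**
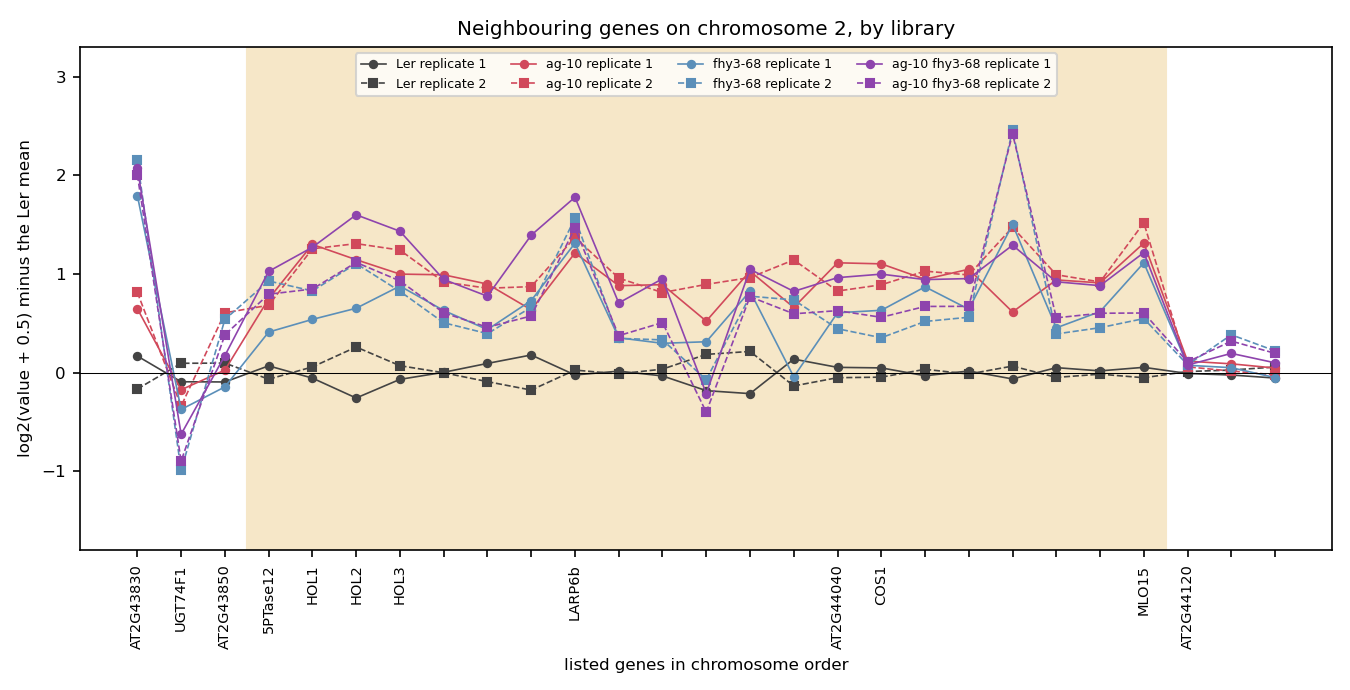
Difference of log2(value + 0.5) from the Ler mean (vertical axis) for each library, by listed gene in chromosome order (horizontal axis), with the stretch shaded and the genes that the text names labelled. The ag-10 libraries have medians of 0.95 and 0.96 over the shaded genes, the fhy3-68 and ag-10 fhy3-68 libraries have medians there between 0.55 and 0.96, and all libraries return toward 0 at AT2G44120.

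Whether the effect of ag-10 depended on fhy3-68 was tested with the interaction, the ag-10 effect with fhy3-68 minus that without. Limma called 1 gene (0.00504%), and 241 had an unadjusted p under 0.05 (1.21%). The edgeR test also called 1 and held 277 at an unadjusted p (1.4%). Without ag-10 replicate 1, limma called 3. The gene called by both was QQS, which is found in Arabidopsis without recognised relatives and affects the balance of starch and protein. QQS read 0.14 and 0.32 in Ler against 196.42 and 207.18 in ag-10, and 101.17 and 136.36 in fhy3-68 against 164.34 and 100.3 in ag-10 fhy3-68. It was near 0 in Ler, from 6 reads over both libraries, and above 100 in every other library. Its interaction was -8.00 (SE 0.35, limma adjusted p = 0.000776), from 8.12 without to 0.13 with fhy3-68, and the additive coefficient of 4.13 (SE 1.38) describes neither background.

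DESeq2 called 3 interactions (0.0151%): QQS, LARP6b of the chromosome 2 stretch, and AT3G43290, an uncharacterised gene. AT3G43290 was listed at 0 in both Ler libraries against 3.53 and 2.45 in ag-10, and its other values were 3.92 and 4.18 (fhy3-68) and 2.79 and 3.59 (ag-10 fhy3-68). As for QQS, both Ler libraries stand alone. With fhy3-68 the ag-10 effect on AT3G43290 was -0.31, and both ag-10 fhy3-68 libraries lay below both fhy3-68 libraries. For QQS these groups overlapped. LARP6b, an RNA-binding protein, read 183.1 and 189.5 in Ler and between 432.1 and 639.5 in the 6 others. The kinase gene AT3G24190, with -0.86 without and 0.21 with fhy3-68, and the glycosyltransferase gene AT5G65685, with -0.66 and 0.17, had estimates of opposite sign and did not pass the test. Taken background by background, limma called 1 gene for ag-10 against Ler (0.00504%), again QQS (4 genes without ag-10 replicate 1), and 357 at an unadjusted p under 0.05 (1.8%), and for ag-10 fhy3-68 against fhy3-68 it called 0 (0%) and 427 at an unadjusted p (2.15%). The 2 lists of calls do not show that the effects of ag-10 are alike or unlike in the 2 backgrounds at other genes, since the standard error of an interaction had a median of 0.21.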

How the data were processed

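RNA from 8 inflorescence libraries was sequenced. Each deposited value is a normalised signal. The values themselves show it to be a gene's reads over a library size factor, since 100% came out as whole reads within 0.1. The tools named, with no role given, are edgeR 3.10.0, HTSeq 0.6.1p1, TopHat2 2.0.14 and CASAVA 1.8, per the submitters' processing notes. Build, annotation and strandedness were not given in the sources used here. Listed genes reach 1 in at least 2 libraries.

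Values were tested as log2(value + 0.5) with limma 3.58.1 (R 4.3.3, intensity trend, two-sided, Benjamini-Hochberg over 19853 genes), with ag-10 and fhy3-68 as additive terms and 5 residual degrees of freedom, and with the interaction added. This scale understates the fold of low genes. Errors written SE are from limma, and 95% intervals are of its coefficients. edgeR 4.0.16 and DESeq2 1.42.0 were run on recovered reads as alternatives. The fits were also run on simulated counts with changes larger than most seen here. That run does not measure how well small changes are found. Replicates of a genotype differed beyond sampling noise (chi-square per degree of freedom between 4.68 and 27.5).

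Names came from RefSeq TAIR10.1, which matched 99.79% of identifiers. The 20 lists had 377 entries, of which 334 were used, 8 were dropped because the reference names the gene otherwise and 35 were not analysed here. The naming rule took called genes, then up to 10 per direction by unadjusted p with all 4 ag-10 libraries on the same side, 2 per list, 6 interactions and a few study genes. The comparison, the lists and the naming rule were chosen with earlier results of these data known. Other models overlap SHT, CYP98A8, CYP98A9, KCS15, CRC, AUR1, AT4G29250, SCAMP4, AT5G16960, AT5G61910, AT1G80950, AT3G24190 and AT5G65685, among others, and their reads may not have been told apart.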

Additional observations from a re-analysis of the deposited data

Results flagged for a closer look

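QQS was flagged because the effect of ag-10 differed between the backgrounds: its interaction was -8.00 (SE 0.35, limma adjusted p = 0.000776), with both ag-10 libraries above both Ler libraries and the ag-10 fhy3-68 libraries on either side of fhy3-68. The edgeR quasi-likelihood test (adjusted p = 0.00441) and DESeq2 (adjusted p = 2.1e-42) also called it. Its level rests on 6 reads over the 2 Ler libraries against 5490 over the 2 of ag-10.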

How the results depend on the processing

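The count of genes called for the ag-10 coefficient was 0 under other pseudocounts, a mean of at least 5, library totals, no fhy3-68 term, the replicate block, edgeR and each left-out library (0 to 0). It was 36 by DESeq2, and 1 (QQS) when the effect was averaged over the backgrounds with the interaction in the fit. Leaving out libraries, an alternative chosen after seeing the data, moved the 36 DESeq2 calls to between 3 and 68: 6 without Ler replicate 1, 12 without Ler replicate 2, 3 without ag-10 replicate 1, 9 without ag-10 replicate 2, 68 without fhy3-68 replicate 2 and 13 without ag-10 fhy3-68 replicate 1. It called 26 without fhy3-68 replicate 1 and 47 without ag-10 fhy3-68 replicate 2. The cause was not tested.

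The interaction gave 3 calls by DESeq2 and 1 to 3 with a library left out (3 without ag-10 replicate 1). For ag-10 against Ler, 1 call became 2 at a pseudocount of 0.1, 23 by DESeq2, and 1 to 4 with a library left out (4 without ag-10 replicate 1). For ag-10 fhy3-68 against fhy3-68, 0 calls became 1 by DESeq2 and stayed at 0 to 0 with a library left out.

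The labels do not say what a replicate number marks. Same-numbered deviations correlated by over 0.1 in 4 of the 6 pairs of genotypes, up to 0.50 for fhy3-68 with ag-10 fhy3-68, and by less in 2, down to -0.03. The main fit did not take the numbers as pairing, so a factor shared by same-numbered libraries would remain in its residual. The source of these correlations was not tested. With the replicate number as a block the counts were 0, 1, 1 and 0 for the ag-10 coefficient, the interaction and the 2 backgrounds, with 758 genes at an unadjusted p under 0.05 for ag-10 in place of 614.

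Among the named genes, 0 that either setting called changed sign between the main fit and an alternative. Sign changes of genes called in neither were not counted. With library totals the median over all genes was 0.02, and 960 genes were apart in both backgrounds in place of 951, but the split turned from 408 higher and 543 lower to 556 and 404, and at an unadjusted limma p from 221 and 393 to 318 and 300. The stretch kept a median between 0.52 and 0.73 with each library left out. List medians moved beyond the list's own spread in 3 cases: organ identity to 0.03 without ag-10 fhy3-68 replicate 2, cytokinin to 0.11 without ag-10 replicate 2, and FHY3 targets to -0.25 without fhy3-68 replicate 2. Depth limits KNU, SUP and other genes near 1.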

Other observations

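Away from flowers' own genes, the clock list, kept as a sign of harvest time, had a median ag-10 coefficient of 0.09 over 10 genes, and its summed level was 598 and 613 in Ler and 632 and 639 in ag-10. The sum was 621 and 769 in fhy3-68 against 725 and 728 in ag-10 fhy3-68, so these groups overlapped. PRR5, a clock repressor, read 5.68 and 5.71 in Ler against 5.78 and 21.52 in ag-10, and 23.7 and 41.49 in fhy3-68 against 28.21 and 35.33 in ag-10 fhy3-68, so ag-10 replicate 2 stood with the fhy3-68 libraries and replicate 1 with Ler. The 16 photosynthesis genes had a median of -0.04, with 11 below 0.

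Starch genes were listed beside QQS. Over the 21 genes of that list the median was 0.03. AT3G23920, a beta-amylase that degrades starch, read 115.7 and 93.63 in Ler against 49.72 and 46.95 in ag-10, and 218.3 and 184 in fhy3-68 against 133.3 and 215.6 in the double mutant. Its coefficient was -0.67 (SE 0.21, not called), with -1.10 without and -0.24 with fhy3-68. The 11 auxin genes had a median of -0.14, and IAA19, an early auxin response gene, read 15.4 and 14.28 in Ler against 11 and 12.18 in ag-10, and 17.13 and 11.31 in fhy3-68 against 10.53 and 10.76 in the double mutant. The 11 cytokinin genes had a median of -0.08 and the 5 genes of FHY3 and its known targets one of -0.01. The late flower, nectary and seed list kept 1 measured gene, at -0.13.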
